A study of Mus musculus with 6 samples.

Results

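The transcripts described here are those of the axon guidance families in mouse sciatic nerve: semaphorins of classes 3 to 7, their plexin and neuropilin receptors, Eph receptors and ephrins, Slits and Robos, and netrins with their Unc5 and Dcc receptors. Members were taken by gene symbol among protein-coding genes, and 57 of the 73 genes with such a symbol had a mean of at least 0.5 FPKM over the 6 libraries, in a table of 55335 genes. FPKM counts fragments relative to the length of the transcript and the depth of the library, so levels can be compared between genes. Unc50 shares only its first letters with the Unc5 receptors and is set apart below, which leaves 56 members. Polyadenylated RNA came from sciatic nerve lysates of mice at postnatal day 14. The 3 control libraries are from RhoAfl/fl mice, homozygous for a floxed allele of the small GTPase RhoA. The 3 icKO libraries are from RhoAfl/fl ChATCreERT2+ mice, which carry the same floxed alleles and, in addition, an inducible Cre recombinase driven from the choline acetyltransferase gene, a gene of spinal motoneurons and other cholinergic cells. The labels give neither the time of induction, nor whether control mice received the inducer, nor whether each library is from its own animal. The p-values therefore reflect only the spread between libraries, which may be technical. The question was how guidance transcripts of the nerve differ when RhoA deletion is aimed at the motoneurons whose axons run in it.

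Guidance molecules are known as cues that attract or repel growing axons. Semaphorins bind plexins, with neuropilins as co-receptors for most class 3 members. Ephrins bind Eph receptor kinases on touching cells, Slits bind Robos, and netrins bind Dcc and Unc5 receptors. Many of these receptors act on the cytoskeleton through small GTPases, and plexin-B1 in particular recruits exchange factors that activate RhoA. In peripheral nerve the families are used by axons, Schwann cells, fibroblasts, perineurial cells and blood vessels alike.

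The libraries were first checked as nerve. Their depth, estimated from the smallest steps of the FPKM values, was 17200000 to 20600000 fragments. Prx, which encodes the periaxin of myelinating Schwann cells, was at 1068, 976 and 996 FPKM in the control nerves against 843, 844 and 847 FPKM in the icKO nerves, without overlap, and did not pass. Neuronal cell body markers summed to 0.502 FPKM or less in each library, with Mnx1 listed at 0 in all 6 and Chat at 0.0123 FPKM or less. The values therefore hold hardly any transcript of motoneuron markers. Rhoa was at 36.5, 39.0 and 38.0 FPKM in the control nerves against 36.4, 33.6 and 33.2 FPKM in the icKO nerves, a difference that did not pass (limma, Benjamini-Hochberg adjusted p = 0.192). A lysate holds Rhoa transcript from all cells of the nerve, so this level is a weak check of the deletion. Adipocyte markers were lower in icKO nerves, with sums of 415 to 519 FPKM in the control nerves against 73.7 to 130 FPKM in the icKO nerves and 6 of 6 markers lower. In 3 other lists the separation of the sums rests on 1 marker. Fibroblast marker sums were 123 to 217 against 92.9 to 107 FPKM, but without Col15a1 they overlapped, at 25.1 to 58.0 against 33.2 to 35.6 FPKM. Of the 6 fibroblast markers Col15a1 and Dpt fell, Pdgfra rose and 3 did not pass. Nonmyelinating or immature Schwann cell marker sums were 80.2 to 94.3 against 126 to 167 FPKM, and without Scn7a they overlapped, at 40.1 to 47.2 against 40.0 to 54.9 FPKM. In that list Scn7a, Ncam1 and Sox2 rose and L1cam fell. Mural marker sums were 150 to 210 against 95.1 to 127 FPKM, and without Acta2, which fell and was the only 1 of 6 to pass, they overlapped, at 76.1 to 89.1 against 70.8 to 98.6 FPKM. Perineurial marker sums were 178 to 180 against 165 to 186 FPKM, while 2 of the 6 markers fell, Lypd2 to 0.170 and Moxd1 to 0.149 of the control mean (limma, Benjamini-Hochberg adjusted p = 0.00190 and 0.00247). Endothelial sums were 57.1 to 59.8 against 51.0 to 57.4 FPKM, with Pecam1 higher and Kdr and Tie1 lower, and macrophage sums were 78.6 to 168 against 81.1 to 84.8 FPKM, with no marker passing. Skeletal muscle marker sums were 980, 192 and 267 FPKM in control against 7.91, 18.8 and 1129 FPKM in icKO. They were highest in control replicate 1 and icKO replicate 3, the muscle-rich libraries. All 6 muscle markers had a negative log2 difference, and 1 of them, Pvalb, passed (limma, Benjamini-Hochberg adjusted p = 0.00856). Control replicate 2 held Xist at 46.1 FPKM, against 0.0282 FPKM or less elsewhere, so 1 control library is female and the other 5 libraries, with Ddx3y at 12.5 to 16.1 FPKM, are male. Fits that deal with muscle, and a fit without the female library, are given below. The fit without both muscle-rich libraries keeps muscle sums of 192 and 267 FPKM in control against 7.91 and 18.8 FPKM in icKO. Muscle level still follows the group there, so that fit cannot separate the 2. The part of the other marker differences in the results was not tested, and in a lysate fewer cells of a type and less RNA per cell cannot be told apart.

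Plexin-A3, plexin-B1, plexin-B3, the receptor gene Ephb6 and the cue genes Slit2 and Sema4g fell in icKO nerves, while Sema3f, Sema6b and Sema4b rose. Ntn5 rose too, but its call was lost with the muscle marker level as a covariate. Of the 56 members, 7 rose, 13 fell and 36 did not pass (limma on log2(FPKM + 1), Benjamini-Hochberg adjusted p under 0.05 over 14784 genes). That is 35.7% of the members, against 41.3% of all genes tested. The 7 rises are 12.5% of the members against 19.8% of all genes, and the 13 falls 23.2% against 21.5%. The guidance families as a whole were therefore not called more often than other genes, and the account below is of single members. The median log2 difference was -0.13 over the members and -0.02 over all genes tested. Libraries of the groups did not overlap in 30 of the 56 members, 10 higher and 20 lower. Of all genes tested 56.3% did not overlap, 27.5% higher and 28.8% lower. Without both muscle-rich libraries 5 members rose and 14 fell, and with the muscle marker level as a covariate 4 rose and 11 fell. Without control replicate 2, the female library, 6 rose and 9 fell. Among the 17 members with a mean of at least 10 FPKM, 1 rose (Sema6d) and 7 fell, or 5.88% and 41.2%, where 24.6% of all genes tested at that level rose and 25.3% fell. The 39 lower members had 6 rises and 6 falls, 15.4% each, against 18.0% and 20.2% of all genes tested under 10 FPKM.

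**Figure D1:**
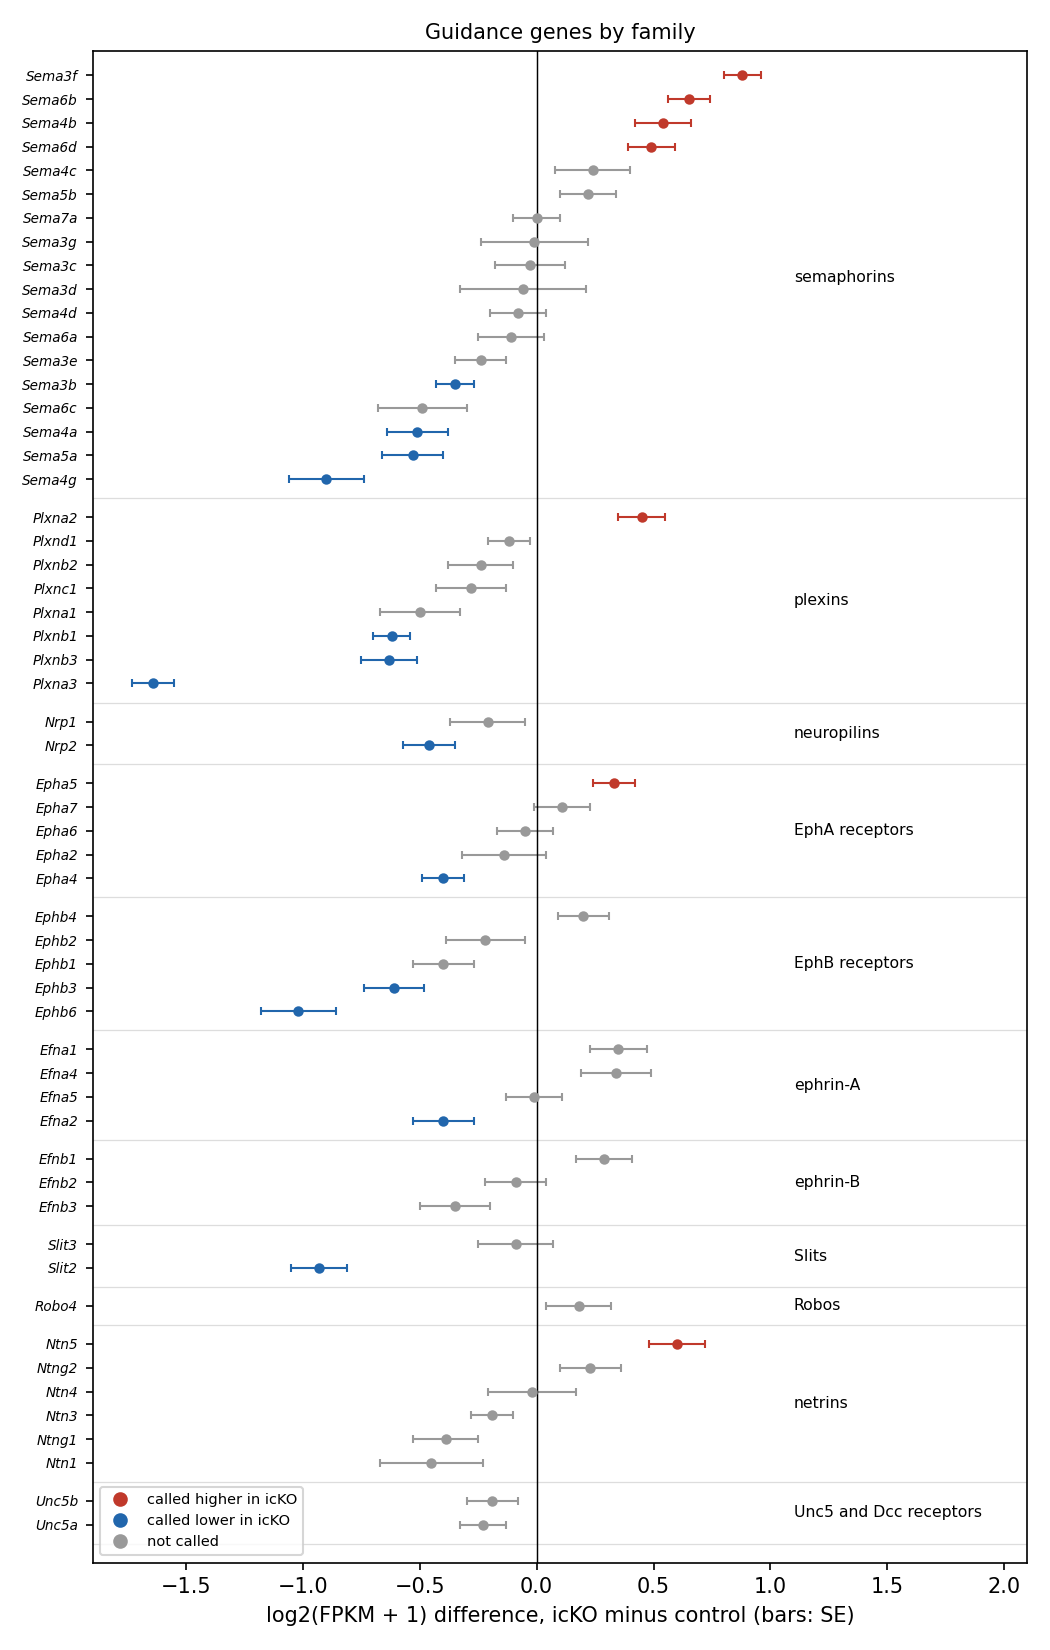
Difference in log2(FPKM + 1), icKO minus control, on the horizontal axis for each of the 56 members, grouped by family, as points with bars of 1 SE (n = 3 per group). Members called higher (red, 7) occur in the semaphorins, plexins, EphA receptors and netrins, those called lower (blue, 13) reach -1.64 at Plxna3, and 36 grey members did not pass.

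The sequences before the start of the members with the largest falls and of the called netrin gene are shown because the data turn on their transcript levels. They are the 3 largest falls and the largest rise among called members with a single start in the table of promoters from RefSeq (build GRCm38.p6), which held 50 of the 56 members. Sema3f, the largest rise of all, has no entry there, and Sema6b and Sema4b have more than 1. Each is the 250 bases before the start, 5′ to 3′ on the strand of the gene, with capitals for matches to GGGCGG on either strand, the GC box bound by Sp and Klf factors. The windows are chrX:74328816-74329065 for Plxna3, chr6:41605261-41605510 for Ephb6, chr5:47982905-47983154 for Slit2 and chr7:45683772-45684021 for Ntn5, all on the plus strand.
Plxna3: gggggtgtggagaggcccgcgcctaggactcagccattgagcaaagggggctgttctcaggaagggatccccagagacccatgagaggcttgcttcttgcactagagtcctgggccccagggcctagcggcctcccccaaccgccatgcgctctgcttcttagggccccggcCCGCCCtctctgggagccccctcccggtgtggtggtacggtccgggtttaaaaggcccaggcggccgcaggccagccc
Ephb6: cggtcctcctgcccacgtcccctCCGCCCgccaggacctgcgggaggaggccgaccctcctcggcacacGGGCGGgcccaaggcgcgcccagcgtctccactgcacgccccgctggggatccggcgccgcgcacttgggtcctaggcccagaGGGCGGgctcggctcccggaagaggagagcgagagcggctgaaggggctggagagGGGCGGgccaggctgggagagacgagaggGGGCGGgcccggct
Slit2: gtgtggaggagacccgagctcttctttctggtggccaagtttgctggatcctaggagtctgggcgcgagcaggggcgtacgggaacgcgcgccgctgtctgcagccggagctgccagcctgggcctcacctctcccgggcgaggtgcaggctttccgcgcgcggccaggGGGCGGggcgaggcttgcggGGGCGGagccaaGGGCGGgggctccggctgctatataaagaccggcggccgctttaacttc
Ntn5: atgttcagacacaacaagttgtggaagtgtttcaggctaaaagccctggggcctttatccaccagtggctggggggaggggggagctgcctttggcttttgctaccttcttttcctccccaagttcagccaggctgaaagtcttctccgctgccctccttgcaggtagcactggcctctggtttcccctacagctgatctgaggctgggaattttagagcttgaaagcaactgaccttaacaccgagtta
The 3 promoters of genes that fell are rich in G and C (68%, 76.8% and 69.6%, against a median of 52.4% over all 32851 promoter entries) and hold 1, 5 and 3 GC boxes, while that of Ntn5 has 52.8% and none. Those entries include genes not tested here, and no median was taken over the tested genes alone. The GC box does not follow the direction of change. It was in the window of 11 of 12 members that fell, 5 of 6 that rose and 24 of 32 that did not pass, and in 63.7% of the 10236 tested genes with an entry (32.7% of all entries). Of 3 other motifs searched on both strands, the Egr motif shares the letters GGGCG with the GC box. ACAAAG, of Sox factors, was in 2 of 12 members that fell, 1 of 6 that rose and 2 of 32 others (14.3% of tested genes and 16.5% of all entries). GGAATG, of TEAD factors, was in 2 of 12, 0 of 6 and 5 of 32 (12.9% and 12.6%), and GCGTGGGCG, of Egr factors, in 0 of 12, 1 of 6 and 0 of 32 (1.28% and 0.536%). A match is a run of letters and not a measured binding site.

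Semaphorins are secreted or membrane-bound cues, and they were the largest and most abundant family, with 18 members. Sema3b alone made up 57.0% to 58.2% of their summed FPKM in control and 50.5% to 53.2% in icKO libraries. Of the 18, 4 rose, 4 fell and 10 did not pass, or 44.4% called against 41.3% of all genes tested. Class 3 members are secreted. Sema3f (ENSMUSG00000034684, chromosome 9), a repellent that acts through neuropilin-2, was at 4.52, 5.02 and 4.24 FPKM in the control nerves against 9.36, 9.21 and 9.30 FPKM in the icKO nerves. Every icKO library lay above every control library, and the icKO values were close together. The mean rose 2.02-fold, a log2 difference of 0.88 (limma, SE 0.08, Benjamini-Hochberg adjusted p = 0.000833). Sema3b (ENSMUSG00000057969), which lies on the same chromosome, was at 393, 372 and 355 FPKM in the control nerves against 289, 303 and 284 FPKM in the icKO nerves. Its groups did not overlap either, but the fall was small, with a log2 difference of -0.35 (limma, SE 0.08, Benjamini-Hochberg adjusted p = 0.0161). That call was lost without control replicate 2 or icKO replicate 1, without both muscle-rich libraries, with the muscle covariate or without a filter on low genes (adjusted p 0.0146 to 0.0723 over all alternative fits). The other class 3 members did not pass. Sema3g, at 26.9 to 33.5 FPKM in control and 21.9 to 42.5 FPKM in icKO, and Sema3c and Sema3d had overlapping groups, and Sema3e was at 0.924 to 1.38 against 0.721 to 0.845 FPKM.

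Class 4 semaphorins are transmembrane ligands, mainly of B-type plexins, and they moved in both directions. Sema4g (ENSMUSG00000025207, chromosome 19) was at 27.5, 25.0 and 25.6 FPKM in the control nerves against 17.0, 10.6 and 13.5 FPKM in the icKO nerves. All icKO values lay below the control values, and the log2 difference was -0.90 (limma, SE 0.16, Benjamini-Hochberg adjusted p = 0.00536). Sema4b (ENSMUSG00000030539, chromosome 7) was at 3.55, 3.22 and 2.57 FPKM in the control nerves against 4.66, 4.66 and 5.60 FPKM in the icKO nerves. It rose without overlap, with a log2 difference of 0.54 (limma, SE 0.12, Benjamini-Hochberg adjusted p = 0.0130). Sema4a, at 1.03, 1.78 and 1.63 FPKM against 0.760, 0.680 and 0.734 FPKM, fell by 0.51 on the log2 scale (limma, SE 0.13, Benjamini-Hochberg adjusted p = 0.0222). Its call held in just 2 of 6 fits without 1 library, those without control replicate 1 and icKO replicate 3. Sema4c, the second most abundant semaphorin, was at 57.9, 62.7 and 65.9 FPKM in the control nerves against 56.9, 84.1 and 82.2 FPKM in the icKO nerves and did not pass. Exons of Sema4c overlap those of a transcript on the opposite strand, D430040D24Rik, at a mean of 28.8 FPKM, and since the handling of strand is not given, reads of the pair may be shared. Sema4d, the classical ligand of plexin-B1, was at 2.23 to 2.36 FPKM in the control nerves against 1.68 to 2.50 FPKM in the icKO nerves.

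Among the class 5 to 7 semaphorins, which are membrane-anchored, 2 of 7 rose and 1 fell. Sema6b (ENSMUSG00000001227, chromosome 17), a ligand of A-type plexins, was at 3.92, 3.64 and 3.91 FPKM in the control nerves against 6.82, 5.99 and 6.92 FPKM in the icKO nerves, a rise of 0.65 on the log2 scale (limma, SE 0.09, Benjamini-Hochberg adjusted p = 0.00207). Sema6d, of the same class, was at 17.3, 19.0 and 16.6 FPKM against 22.3, 25.4 and 27.9 FPKM (log2 difference 0.49, limma SE 0.10, Benjamini-Hochberg adjusted p = 0.0111, and 0.0522 without both muscle-rich libraries). Sema6c had the opposite sign, at 54.1, 41.7 and 46.0 FPKM in the control nerves against 39.2, 37.7 and 24.5 FPKM in the icKO nerves. Its groups did not overlap, but the spread was wide and it did not pass (limma, Benjamini-Hochberg adjusted p = 0.0820). Sema5a (ENSMUSG00000022231, chromosome 15), a ligand of plexin-B3 and of A-type plexins, was at 43.7, 40.1 and 36.0 FPKM in the control nerves against 28.8, 30.4 and 23.1 FPKM in the icKO nerves. It fell without overlap, by 0.53 on the log2 scale (limma, SE 0.13, Benjamini-Hochberg adjusted p = 0.0159), and missed the threshold without control replicate 2 (adjusted p 0.0156 to 0.0512 over all alternative fits). Sema7a, which binds plexin-C1 and integrins, was at 23.8 to 28.4 FPKM in the control nerves against 23.8 to 27.8 FPKM in the icKO nerves, and Sema5b and Sema6a did not pass.

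**Figure D2:**
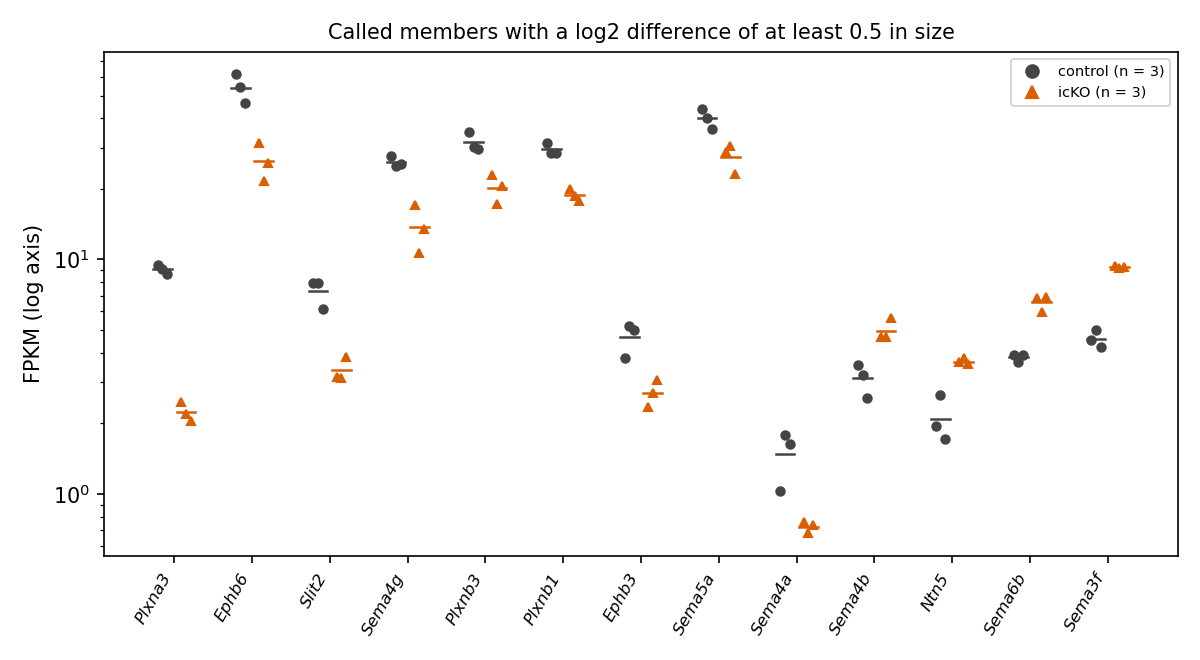
FPKM on a log axis in each library of control (dark circles, n = 3) and icKO nerves (orange triangles, n = 3) for the 13 called members whose groups do not overlap and whose log2 difference is at least 0.5 in size, ordered from the largest fall (Plxna3) to the largest rise (Sema3f). Short lines are means, and by the choice of genes no icKO library reaches into the control range.

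Plexins, the semaphorin receptors, had 3 falls, 1 rise and 4 members that did not pass. Plxna3 (ENSMUSG00000031398, chromosome X) encodes plexin-A3, which with neuropilin-2 forms a receptor for Sema3F. It was at 9.48, 9.13 and 8.63 FPKM in the control nerves against 2.47, 2.20 and 2.05 FPKM in the icKO nerves. The groups lay far apart and each was tight. The control mean was 4.06-fold higher, and the log2 difference of -1.64 (limma, SE 0.09, Benjamini-Hochberg adjusted p = 0.000295) was the largest of all members in either direction. Without control replicate 2, the female library, it still passed. Plxna2, another A-type plexin, was low but rose, from 0.579, 0.857 and 0.746 FPKM to 1.30, 1.54 and 1.25 FPKM (log2 difference 0.45, limma SE 0.10, Benjamini-Hochberg adjusted p = 0.0136, and 0.0775 with the muscle covariate). Plxna1 was at 12.1, 14.1 and 13.8 FPKM in the control nerves against 8.15, 7.53 and 12.3 FPKM in the icKO nerves. Its groups overlapped through icKO replicate 3, and it did not pass (limma, Benjamini-Hochberg adjusted p = 0.0577).

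The B-type plexins bind class 4 and class 5 semaphorins, and the more abundant of them fell. Plxnb1 (ENSMUSG00000053646, chromosome 9), the receptor that recruits RhoA exchange factors, was at 31.4, 28.5 and 28.5 FPKM in the control nerves against 20.0, 18.6 and 17.8 FPKM in the icKO nerves. Its groups did not overlap, and the log2 difference was -0.62 (limma, SE 0.08, Benjamini-Hochberg adjusted p = 0.00209). Exons of Plxnb1 overlap an antisense gene, Gm7628, at a mean of 1.32 FPKM. Plxnb3 (ENSMUSG00000031385, chromosome X), a Sema5a receptor, was at 34.9, 30.2 and 29.7 FPKM in the control nerves against 22.8, 17.2 and 20.6 FPKM in the icKO nerves. It fell without overlap, by 0.63 on the log2 scale (limma, SE 0.12, Benjamini-Hochberg adjusted p = 0.00813). Plxnb2, at 8.72 to 12.2 FPKM against 7.40 to 9.32 FPKM, did not pass. Nor did Plxnd1, a plexin of blood vessels, at 23.9 to 28.3 FPKM in the control nerves against 22.9 to 24.6 FPKM in the icKO nerves, or Plxnc1. Summed over the 8 plexins, the libraries held 121 to 123 FPKM in control and 80.0 to 89.0 FPKM in icKO, without overlap.

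Neuropilins, the co-receptors of secreted semaphorins, were lower by mean in both members, and 1 passed. Nrp2 (ENSMUSG00000025969, chromosome 1), the Sema3F co-receptor, was at 11.4, 14.1 and 13.0 FPKM in the control nerves against 10.0, 8.38 and 8.71 FPKM in the icKO nerves. It fell by 0.46 on the log2 scale (limma, SE 0.11, Benjamini-Hochberg adjusted p = 0.0157), and the call was lost without control replicate 2, without control replicate 3 or with the replicate number as a block (adjusted p 0.0122 to 0.0579 over all alternative fits). Nrp1, at 2.27 to 3.94 FPKM against 2.35 to 2.92 FPKM, did not pass. Set side by side, the ligand Sema3f rose and its receptor parts Nrp2 and Plxna3 fell. In each control library Plxna3 was above Sema3f in FPKM, and in each icKO library it was below. Among partners of semaphorin receptors, Chl1, a neuropilin-binding adhesion molecule, rose from 5.75 ± 0.684 to 13.7 ± 2.26 FPKM (SD, n = 3 each), and the related L1cam fell from 8.38 ± 0.960 to 4.95 ± 0.313 FPKM.

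**Figure D3:**
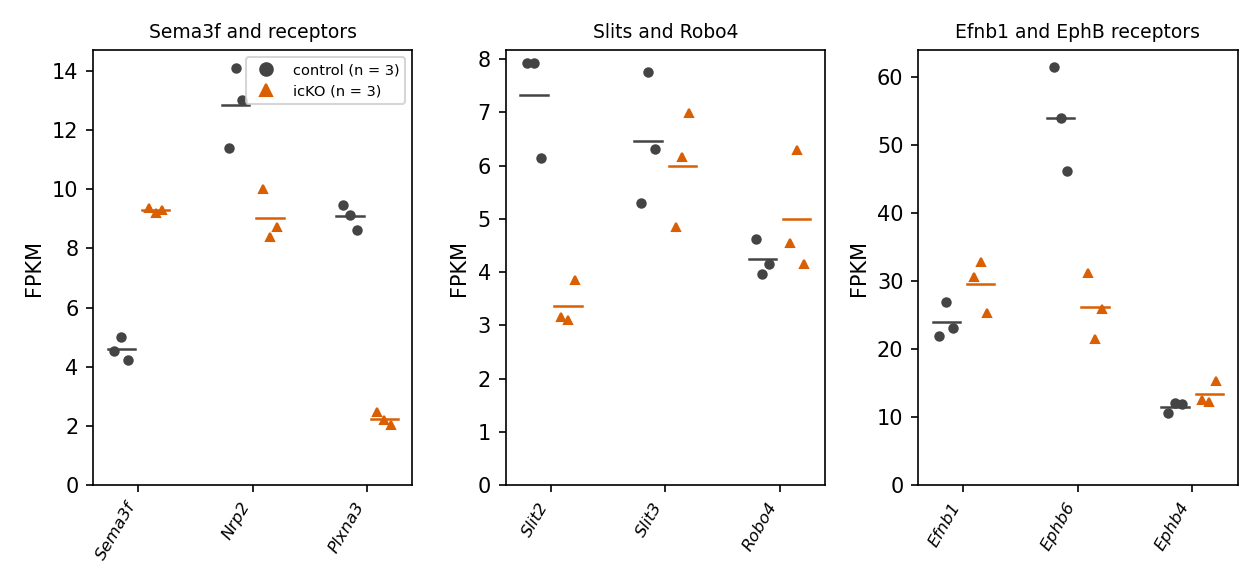
FPKM (linear axis from 0) in each control (dark circles, n = 3) and icKO library (orange triangles, n = 3), with means as short lines, for Sema3f with its receptor genes Nrp2 and Plxna3, for Slit2, Slit3 and Robo4, and for Efnb1 with Ephb6 and Ephb4. Sema3f is higher and Plxna3 and Nrp2 lower in all 3 icKO libraries, and Slit2 is lower while Slit3 overlaps.

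Eph receptors were dominated by Ephb6, a member whose kinase domain lacks activity and which modulates the signals of other Eph receptors. Ephb6 (ENSMUSG00000029869, chromosome 6) was at 61.5, 54.1 and 46.3 FPKM in the control nerves against 31.3, 21.5 and 25.9 FPKM in the icKO nerves. The groups did not overlap, the control mean was 2.06-fold higher, and the log2 difference was -1.02 (limma, SE 0.16, Benjamini-Hochberg adjusted p = 0.00369). Ephb3 (ENSMUSG00000005958, chromosome 16), an active kinase, was at 3.81, 5.20 and 4.99 FPKM in the control nerves against 2.35, 2.70 and 3.05 FPKM in the icKO nerves. It also fell without overlap, by 0.61 on the log2 scale (limma, SE 0.13, Benjamini-Hochberg adjusted p = 0.0105, and 0.0537 with the muscle covariate). Ephb4, the venous receptor of ephrin-B2, was at 10.6, 12.1 and 11.9 FPKM against 12.5, 12.3 and 15.4 FPKM and did not pass, and neither did Ephb1 (limma, Benjamini-Hochberg adjusted p = 0.0527) or Ephb2. The summed EphB level was 66.6 to 78.5 FPKM in the control nerves against 38.0 to 48.2 FPKM in the icKO nerves. Without Ephb6 the sums overlapped, at 17.0 to 20.4 FPKM and 16.5 to 21.0 FPKM, so the separation of the sums rests on that gene.

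EphA receptors were low apart from Epha2. Epha4, a receptor of both ephrin classes, was at 1.42, 1.27 and 1.37 FPKM in the control nerves against 0.801, 0.849 and 0.683 FPKM in the icKO nerves. It fell without overlap, by 0.40 on the log2 scale (limma, SE 0.09, Benjamini-Hochberg adjusted p = 0.0113, and 0.0549 without both muscle-rich libraries). Epha5 rose from 0.766, 0.724 and 0.745 FPKM to 1.21, 1.07 and 1.29 FPKM (log2 difference 0.33, limma SE 0.09, Benjamini-Hochberg adjusted p = 0.0220). That call was lost without control replicate 2, control replicate 3 or icKO replicate 1, without a filter on low genes, with the replicate block and in both fits that deal with muscle (adjusted p 0.0103 to 0.0778 over all alternative fits). Epha2, the highest of the class, was at 8.55, 10.0 and 8.53 FPKM in the control nerves against 7.37, 6.45 and 10.9 FPKM in the icKO nerves, with overlap, and Epha6 and Epha7 did not pass.

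Ephrins are the ligands of Eph receptors. The GPI-anchored ephrin-A members had 1 fall and the transmembrane ephrin-B members no call. Efna2 fell from 1.26, 1.83 and 1.41 FPKM to 0.757, 0.813 and 1.12 FPKM (log2 difference -0.40, limma SE 0.13, Benjamini-Hochberg adjusted p = 0.0422), and its call held in just 2 of 6 fits without 1 library, those without control replicate 1 and icKO replicate 3. Efna1, the most abundant ephrin-A, was at 3.57, 4.28 and 4.03 FPKM in the control nerves against 4.43, 5.73 and 5.85 FPKM in the icKO nerves. All icKO values were higher, and the difference of 0.35 (SE 0.12) did not pass (limma, Benjamini-Hochberg adjusted p = 0.0544). Efnb1 (chromosome X), the most abundant ephrin, was at 22.0, 27.0 and 23.2 FPKM in the control nerves against 30.7, 32.9 and 25.4 FPKM in the icKO nerves, with overlap through control replicate 2, and did not pass (limma, Benjamini-Hochberg adjusted p = 0.104). Without icKO replicate 3 it was called higher. Efnb3, at 5.27 to 7.11 FPKM against 3.64 to 5.17 FPKM, did not pass, nor did Efna4, at 0.697, 0.528 and 0.765 FPKM against 1.22, 0.715 and 1.47 FPKM, Efnb2 or Efna5. The ephrin-B sum, at 29.4 to 35.5 FPKM in control and 31.7 to 39.5 FPKM in icKO libraries, was below the EphB sum in every control library, whereas in icKO replicate 2 it was above it, at 39.5 against 38.0 FPKM.

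**Figure D4:**
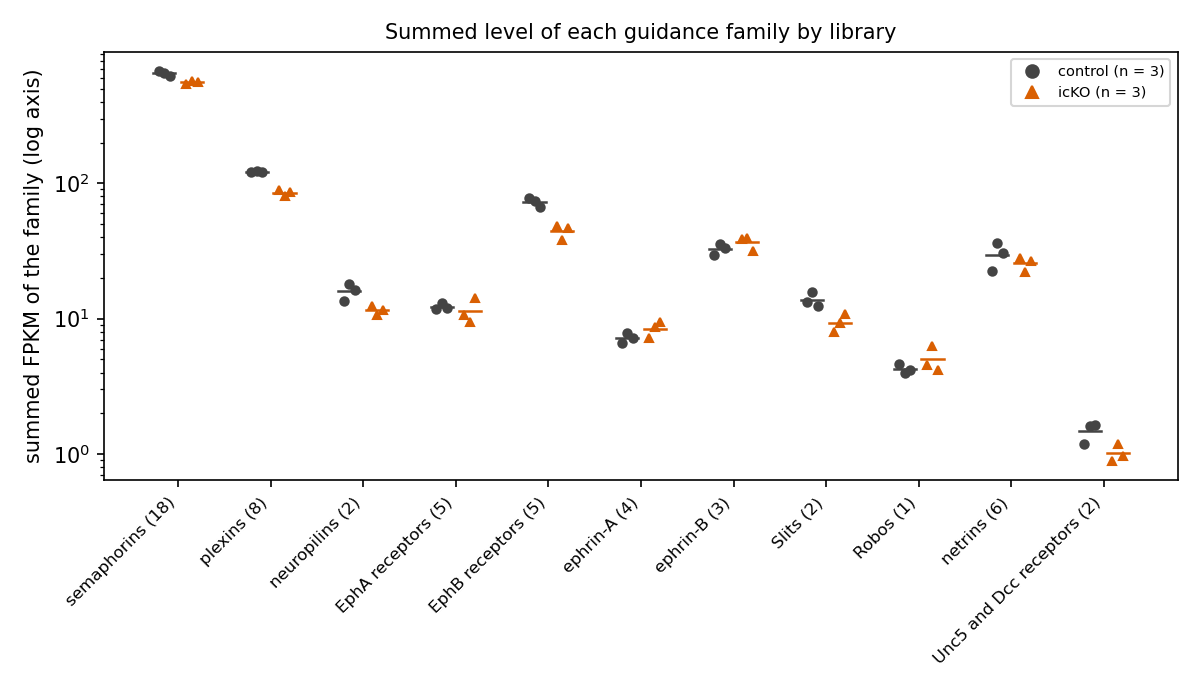
Summed FPKM of the members of each family (number of members in brackets) on a log axis in each control (dark circles, n = 3) and icKO library (orange triangles, n = 3), with means as short lines. Plexin and EphB sums separate most clearly, at 121 to 123 against 80.0 to 89.0 FPKM and 66.6 to 78.5 against 38.0 to 48.2 FPKM. The EphB separation rests on Ephb6. Semaphorin, neuropilin, Slit, and Unc5 and Dcc sums do not overlap either, while ephrin, EphA, Robo and netrin sums overlap.

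Slits are secreted repellents, and the Slit members differed from each other in outcome. Slit2 (ENSMUSG00000031558, chromosome 5) was at 7.93, 7.92 and 6.15 FPKM in the control nerves against 3.16, 3.11 and 3.85 FPKM in the icKO nerves. The groups did not overlap, the control mean was 2.17-fold higher, and the log2 difference was -0.93 (limma, SE 0.12, Benjamini-Hochberg adjusted p = 0.00211). Slit3 was at 5.29, 7.76 and 6.32 FPKM in the control nerves against 4.85, 6.16 and 6.99 FPKM in the icKO nerves, with overlap, and did not pass (log2 difference -0.09, limma SE 0.16, Benjamini-Hochberg adjusted p = 0.684). Whether the members differ in their change was not tested. Slit3 made up 40.0% to 50.7% of the Slit sum in control and 60.6% to 66.5% in icKO libraries. Of the Robo receptors only Robo4, which is found on endothelial cells, reached the filter, at 4.63, 3.97 and 4.15 FPKM in the control nerves against 4.55, 6.30 and 4.16 FPKM in the icKO nerves, and it did not pass. Robo1, a main Slit receptor, was at 0.0445 to 0.124 FPKM, and Robo2 and Robo3 were lower still.

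Among netrins, secreted or GPI-anchored relatives of laminin, 1 of 6 rose and none fell. Ntn5 (ENSMUSG00000070564, chromosome 7) was at 1.94, 2.63 and 1.72 FPKM in the control nerves against 3.64, 3.80 and 3.57 FPKM in the icKO nerves. It rose without overlap, with a log2 difference of 0.60 (limma, SE 0.12, Benjamini-Hochberg adjusted p = 0.00906, and 0.0511 with the muscle covariate). Exons of Ntn5 overlap 519 bases of Sec1 on the opposite strand, at a mean of 0.537 FPKM. Ntn1, a cue for many growing axons, was at 10.7, 19.9 and 17.4 FPKM in the control nerves against 11.8, 9.81 and 11.9 FPKM in the icKO nerves. It did not pass (limma, Benjamini-Hochberg adjusted p = 0.137) and was called lower without control replicate 1, whose value lay among those of the icKO libraries. Ntn4, a netrin of basement membranes, was at 4.87 to 7.77 FPKM against 4.74 to 7.36 FPKM, and Ntn3, Ntng1 and Ntng2 did not pass. The Unc5 and Dcc receptors were scarce. Unc5b was at 0.577, 0.820 and 0.798 FPKM in the control nerves against 0.471, 0.702 and 0.402 FPKM in the icKO nerves, Unc5a at 0.613 to 0.833 FPKM and 0.421 to 0.569 FPKM, and neither passed. Dcc was at 0.0165 FPKM or less in all 6 libraries. Neo1, counted among the netrin partners below, was at a mean of 4.93 FPKM in control and 6.51 FPKM in icKO. It rose (limma, Benjamini-Hochberg adjusted p = 0.0233), but the call held in just 2 of 6 fits without 1 library.

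Of the genes with a symbol that fits, 16 stayed below the filter and were not tested, among them Sema3a at 0.0243 to 0.0679 FPKM. Slit1 was at 0.0593, 0.152 and 0.101 FPKM in the control nerves against 0.399, 0.448 and 0.312 FPKM in the icKO nerves, and Epha1 at 0.182, 0.184 and 0.209 FPKM against 0.0854, 0.0504 and 0.0780 FPKM. Neither pair of groups overlaps, but the levels are low and no test was made. The others are Epha3, Epha8, Epha10, Efna3, Plxna4, Sema4f, Robo1, Robo2, Robo3, Dcc, Unc5c, Unc5d and Unc5cl. Unc50, which encodes a membrane protein unrelated to netrin receptors, rose from 18.4, 20.0 and 19.0 FPKM to 23.5, 23.1 and 26.3 FPKM (log2 difference 0.33, limma SE 0.08, Benjamini-Hochberg adjusted p = 0.0199).

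Signalling partners of these receptors were read from the same fit. Of 70 tested partners, 10 rose, 13 fell and 47 did not pass, or 32.9% called against 41.3% of all genes, with a median log2 difference of -0.05. The largest falls were those of Dpysl3 and Dpysl5, cytosolic mediators of semaphorin responses, of Adam10, a protease that sheds ephrins, and of Chn1, a Rac GTPase-activating protein downstream of Epha4. Dpysl3 fell from 8.60 ± 1.32 to 2.83 ± 0.499 FPKM, Dpysl5 from 1.87 to 0.656 FPKM, Adam10 from 144 ± 8.81 to 75.0 ± 0.978 FPKM and Chn1 from 6.67 ± 0.411 to 3.10 ± 0.244 FPKM (SD, n = 3 each). The largest rises, after Chl1, were those of Vav2, a GTPase exchange factor that binds Eph receptors, from 4.50 ± 0.482 to 8.42 ± 0.0502 FPKM, of the kinase Pak1 from 3.73 ± 0.518 to 6.23 ± 1.17 FPKM, and of the kinase Fyn from 40.7 ± 4.54 to 58.1 ± 3.26 FPKM. Of the 2 exchange factors that link plexin-B1 to RhoA, Arhgef11 rose from 7.62 ± 0.438 to 9.45 ± 0.376 FPKM, a call held in just 1 of 6 fits without 1 library, that without icKO replicate 3, and Arhgef12, at 20.2 and 21.8 FPKM, did not pass. By pathway, 4 of 19 semaphorin partners rose and 3 fell, 1 of 16 Eph partners rose and 5 fell, 2 of 12 Slit partners rose, 2 of 11 netrin partners rose and 2 fell, and 1 of 12 cytoskeletal outputs of small GTPases rose and 3 fell (Limk2, Pak2 and Cfl1). The count of partners that rose was only 4 without control replicate 1, 4 without control replicate 2, 4 without control replicate 3 and 5 without both muscle-rich libraries.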

How the data were processed

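RNA of sciatic nerve was measured by sequencing in 3 control and 3 icKO libraries. The authors deposited FPKM values, without counts, for 55335 genes, and each of the 6 columns matched 1 sample by name. The submitters' processing notes name STAR and StringTie 1.3.1c, the build GRCm39, DESeq2 1.16.1 and FastQC 0.11.2, with no role or order. For the annotation release, strand and multiply matching reads, nothing is stated in those sources. Symbols were matched by gene ID to GENCODE M21 (another build, GRCm38) for 55154 IDs, and 181 had no match. M21 also gave chromosome names, transcript lengths and exon overlaps, which 14 of the 56 members have, 3 of them called.

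The 14784 genes whose mean reached 0.5 FPKM entered a fit of log2(FPKM + 1) with limma 3.58.1 (R 4.3.3), two-sided, with a variance trend and no covariate, and p-values were adjusted by Benjamini-Hochberg over all of them at 0.05. A difference on this scale understates the change of low genes. Rose and fell refer to called genes in icKO relative to control. Depth was estimated by taking the most frequent product of FPKM under 0.3 and transcript length as 1 fragment. The least covered member, Efna4, then rests on about 28 fragments per library, so low members carry more counting error. The procedure was tested on simulated data.

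The members, the partner and marker lists and the 2 fits that deal with muscle (without both muscle-rich libraries, and with the mean log2 level of 6 skeletal muscle markers as a covariate) were chosen with earlier results of these data known. Values in every library are given for called members without overlap and with a log2 difference of at least 0.5 in size, and for the highest member of each family. Other members with values in every library, and those partners named beside the 4 largest called in each direction, were chosen after their values were seen. Of the partners, 7 lay below the filter. The summed level of the myelinating Schwann cell markers is not reported here.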

Additional observations from a re-analysis of the deposited data

How the results depend on the processing

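In 18 alternative fits the 20 called members kept their sign wherever they were tested, and 9 passed in each fit: Ephb6, Plxna3, Plxnb1, Plxnb3, Sema3f, Sema4b, Sema4g, Sema6b and Slit2. Leaving out 1 library at a time gave 6 to 8 members higher and 9 to 14 lower, 4055 to 5991 genes called in all (4055 without control replicate 3), 4 to 9 partners higher and 12 to 15 lower. The muscle covariate left 4 members higher. Partners higher were 6 with the replicate block and 5 without both muscle-rich libraries. In that last fit muscle marker sums still separate the groups, so passing it is no check against muscle. Rescaling to a common sum, median-of-ratios and quantile scaling gave 7, 8 and 8 members higher and 15, 15 and 13 lower. Libraries with the same replicate number did not deviate alike (correlations of deviations from the group means -0.1, 0.038 and -0.061 for numbers 1, 2 and 3). With so few libraries these values cannot exclude that a number marks a pair, and the labels do not say. With the replicate block 7 members were higher and 11 lower, and Efna2, Epha5 and Nrp2 did not pass. Single members that passed only in an alternative were Ephb1, Ntng1, Efna1, Plxna1, Unc5a, Ntn1, Sema4c, Efna4, Efnb1, Nrp1 and Sema6c. With a pseudocount of 0.1 the difference of Plxna3 was -1.98 and that of Plxna2 0.83. The depth estimate leaves differences in members near 0.5 FPKM hard to detect.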
